A study of Mus musculus with 12 samples.

Results

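Translation efficiency (TE), the footprint level of a transcript relative to its mRNA level, was compared between Eμ-Myc/+ and Eμ-Myc/+ Prps2null lymphomas. RNA-seq and Ribo-seq libraries of 3 lymphomas per genotype were used, which are all 12 libraries of the series, 6 per assay. Lymphoma cells kept frozen (a fixed number per mouse) were injected intravenously into untreated male C57BL/6 mice aged 8 weeks, and B cells were then isolated from the lymph nodes, as the labels describe. The study's methods name only tumour-bearing mice of each genotype as the source for these assays, so the labels and methods differ on this point. Both genotypes carry the Eμ-Myc transgene, in which the immunoglobulin heavy-chain enhancer drives Myc in B-lineage cells, and the Prps2null lymphomas also lack functional Prps2, so no library comes from normal B cells. Hosts as the labels describe them have an intact Prps2 gene of their own. The labels name the samples as biological replicates without saying whether they grew from separate primary tumours, so the p-values below measure the spread between these samples.

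Prps2 encodes phosphoribosyl pyrophosphate synthetase 2, an enzyme that makes the sugar phosphate on which purine and pyrimidine nucleotides are built, and Myc is known to raise its output in lymphoma. Ribo-seq sequences the short pieces of mRNA that ribosomes cover, the ribosome-protected fragments (RPF) or footprints. A transcript whose mRNA falls while its footprints stay has a higher TE, and one whose footprints fall with its mRNA has an unchanged TE. Ribosomal proteins and translation factors are the best known targets of control at this step, through mTORC1 and the pyrimidine-rich start of their mRNAs.

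Prps2 (transcript ENSMUST00000026839, on chromosome X) was read first in every library, in CPM (the usual count unit scaled to the library total). In RNA-seq it stood at 60.3, 60.9 and 56.5 CPM in Eμ-Myc/+ replicates 1, 2 and 3 and at 10.9, 8.53 and 9.09 CPM in the Prps2null replicates, and the genotypes did not overlap. Its footprints stood at 162.5, 129.1 and 8.18 CPM under the Eμ-Myc/+ label, and 5.11, 139.7 and 9.65 CPM under the Prps2null label. The library labelled Eμ-Myc/+ replicate 3 was thus low and the library labelled Prps2null replicate 2 was high, which goes against both labels and places each with the libraries of the other label. This is what an exchange of the 2 labels would look like, but the values of 1 gene do not show how it came about, and the cause was not tested.

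**Figure D1:**
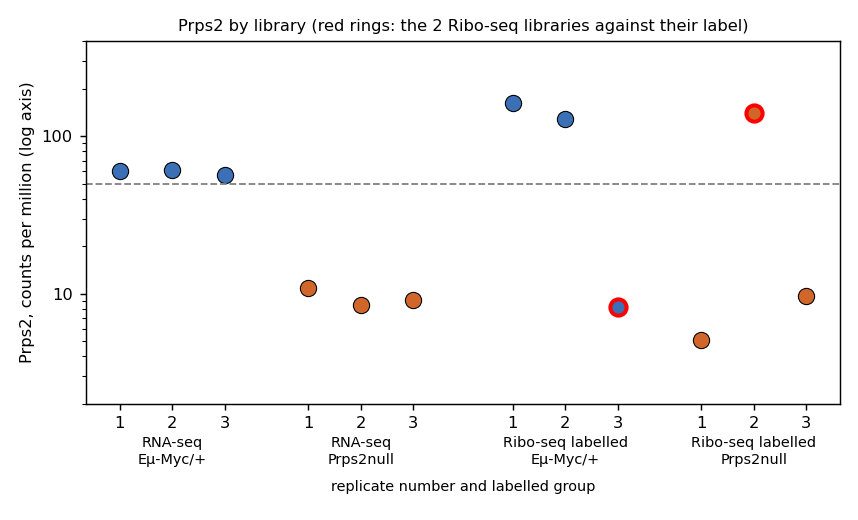
Prps2 level (CPM, log axis) in each RNA-seq and Ribo-seq library, coloured by labelled genotype, with the limit of 50 CPM as a dashed line. In Ribo-seq, the ringed libraries labelled Eμ-Myc/+ replicate 3 (8.18 CPM) and Prps2null replicate 2 (139.7 CPM) lie on the opposite side of the limit from their label.

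TE was therefore computed in 3 ways. All 12 libraries were grouped by label. The same test was run on 10 libraries, without the 2 Ribo-seq libraries whose Prps2 goes against the label. Finally, the 6 Ribo-seq libraries were grouped by their Prps2 footprints, 50 CPM or more (labelled Eμ-Myc/+ replicates 1 and 2 and Prps2null replicate 2) against under 50 CPM (labelled Eμ-Myc/+ replicate 3 and Prps2null replicates 1 and 3), and set against RNA-seq by label. Because these groups were chosen by a measured value, the split is given as a description with no test. No library was given another genotype. The 2 libraries left out of the 10-library test were chosen by the same measured value. Its p-values and counts of calls, and those of Ribo-seq without these 2 libraries, therefore follow a choice made on the data. They hold only given that choice and are not a test of the labels as deposited. The libraries nearest to the limit had 129.1 CPM inside and 9.65 CPM outside it. RNA and RPF libraries of 1 lymphoma were not paired in any of the 3.

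Depth moved with the split. The libraries with 50 CPM or more of Prps2 footprints held 975201 to 1019881 counts and those under it 1770735 to 2793163, against 4135908 to 6648829 in RNA-seq. A transcript with 3 counts stood at 1.07 to 3.08 CPM in Ribo-seq, and this floor covers counting error only. After thinning the Ribo-seq libraries to the shallowest total, 975201 counts, 239 transcripts passed the TE test in 10 libraries, against 288 at full depth.

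The rest of the transcriptome placed the same 2 libraries with the other label. Of the transcripts called in RNA-seq that also passed the low-count filter of the TE test, 1007 had footprints at least 1 log2 unit apart between the 4 remaining Ribo-seq libraries. At 991 of them (98.4%) the library labelled Eμ-Myc/+ replicate 3 was nearer to the Prps2null libraries, and at 934 (92.8%) the library labelled Prps2null replicate 2 was nearer to the Eμ-Myc/+ libraries. On a scale where the remaining Eμ-Myc/+ libraries lie at 0 and the remaining Prps2null libraries at 1, their median positions were 1.00 and 0.04.

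A score per library gave the same order. It is the median log2 CPM of the transcripts called higher in Prps2null RNA-seq minus that of the lower ones, over the 604 higher and 2757 lower calls (of 1779 and 2888) that passed the low-count filter of the TE test. In Ribo-seq it was -3.23, -3.33 and -0.94 in the libraries labelled Eμ-Myc/+ and -1.01, -3.28 and -1.05 in those labelled Prps2null. The 3 libraries with high Prps2 footprints lay within -3.33 to -3.23 and the 3 others within -1.05 to -0.94, with no library between them.

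**Figure D2:**
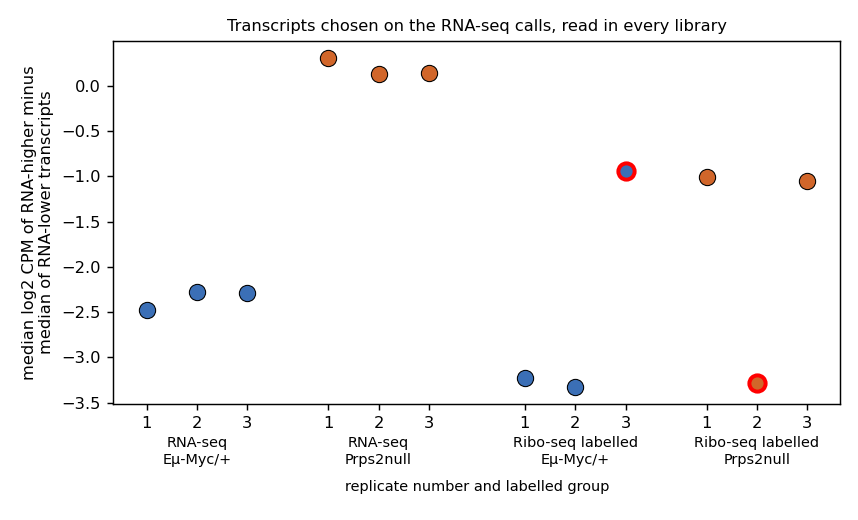
Score of each library: the median log2 CPM of transcripts higher in Prps2null RNA-seq minus that of the lower ones, by labelled group and replicate. The transcripts were selected on the RNA-seq libraries, and the ringed Ribo-seq libraries at -0.94 and -3.28 sit with the libraries of the other label.

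Single genes showed the same libraries changing side. Trp53, the p53 tumour suppressor, had 136.4, 121.1 and 113.5 CPM in Eμ-Myc/+ RNA-seq and 3.38, 3.03 and 2.07 in Prps2null. Its footprint levels were 636.3, 566.4 and 9.41 CPM under the Eμ-Myc/+ label and 8.73, 543.2 and 16.7 CPM under the Prps2null label. Lef1, a transcription factor of B-cell precursors, followed with footprints of 118.4, 131.1 and 3.20 CPM and of 4.95, 135.7 and 5.00 CPM.

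Genes that were high in Prps2null RNA-seq did the reverse. Foxf2, a forkhead transcription factor, had 1.28, 1.8 and 2.29 CPM in Eμ-Myc/+ RNA-seq and 40.6, 62.4 and 52.7 CPM in Prps2null. Its footprints were 1.03, 2.60 and 90.6 CPM under the Eμ-Myc/+ label and 78.5, 4.46 and 92.6 under the Prps2null label. Cdkn2a, the locus of p16INK4a and p19ARF, had footprints of 19.8, 33.0 and 195.6 CPM against 228.3, 35.9 and 209.9 CPM.

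Each assay was scaled by the median of ratios, and all transcripts were tested with the quasi-likelihood test of edgeR, with a Benjamini-Hochberg adjusted p of 0.05 as the limit. By label in all 12 libraries, 168 of 8987 transcripts had a higher TE in Prps2null (1.87% of those tested) and 0 a lower one (0%). At an unadjusted p under 0.05, 1839 were higher and 106 lower, and DESeq2 called 591 higher and 6 lower. In the 10 libraries, 1710 were higher and 177 lower at an unadjusted p under 0.05, and DESeq2 called 337 higher and 46 lower. By the adjusted p of edgeR there, 251 of 9001 had a higher TE (2.79%) and 37 a lower one (0.411%). The corresponding RNA-seq test called 1779 of 14682 transcripts higher (12.1%) and 2888 lower (19.7%), and Ribo-seq in its 4 remaining libraries called 1602 of 9048 higher (17.7%) and 1659 lower (18.3%). In Ribo-seq by label with all 6 libraries, edgeR called 0 of 9031, with 47 at an unadjusted p under 0.05. The 4 remaining libraries were left after a choice by Prps2 footprints, so their counts and the 0 of 9031 are not like for like.

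The scaling and single lymphomas moved these counts. With library totals as the scale, TE in 10 libraries gave 59 higher and 55 lower transcripts, scaling over both assays together gave 146 and 55, and RNA-seq by totals gave 3851 higher and 1668 lower. Without Eμ-Myc/+ replicate 1, 2 or 3 the 288 TE calls became 5, 8 and 123, without Prps2null replicate 1 they became 929 and without replicate 2 they became 189. The first 2 of these leave only 1 Eμ-Myc/+ Ribo-seq library, and the fit without Prps2null replicate 1 leaves only 1 Prps2null Ribo-seq library. By label in all 12 libraries, the 168 calls became 0, 0 and 20 without Eμ-Myc/+ replicate 1, 2 or 3 and 0 without Prps2null replicate 2. Of 34 genes that met the rule for named genes and were called in 10 libraries, 22 stayed past the limit with library totals, 22 when lymphoma was a block, 6 when replicate number was, and 1, 2 and 22 without Eμ-Myc/+ replicate 1, 2 or 3.

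The grouping changed how footprints followed mRNA. By label in all 12 libraries, the footprint log2 change rose by 0.23 per unit of RNA log2 change, whereas in the 10 libraries the slope was 1.05 and in the Prps2 split it was 1.02. Pearson's r across transcripts was 0.61, 0.76 and 0.78, as a description over transcripts that share libraries. The median TE change of all transcripts was 0.36 (interquartile range -0.01 to 0.74), 0.42 (0.11 to 0.71) and 0.42 (0.14 to 0.68) on the log2 scale, so group medians below are read against these values and not against 0. These medians depend on the scaling, and were -0.02 and 0.08 in 12 and 10 libraries with library totals, and -0.02 and 0.04 with scaling over both assays together.

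**Figure D3:**
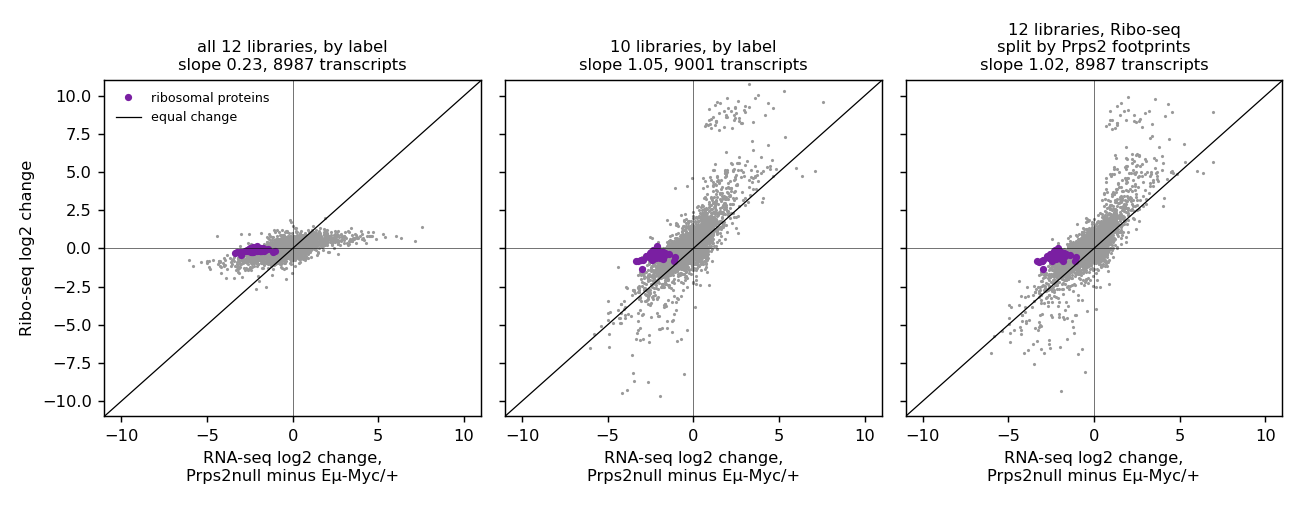
Ribo-seq log2 change against RNA-seq log2 change (Prps2null minus Eμ-Myc/+) for every tested transcript in the 3 groupings, with ribosomal protein transcripts in purple and the line of equal change. The slope is 0.23 with all 12 libraries by label, 1.05 with 10 libraries and 1.02 with the Ribo-seq libraries split by Prps2 footprints, and the ribosomal proteins lie to the upper left of the line in each panel.

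The higher TE calls in 10 libraries were mostly transcripts whose mRNA was lower. The 251 had a median RNA log2 change of -1.55 and a median footprint change of -0.04. RNA-seq called 196 of them lower and 29 higher, against 19.7% and 12.1% of all transcripts. Ribo-seq in its remaining libraries called 78 of the 251 lower and 80 higher, against 18.3% and 17.7%. The footprint median thus does not mean that footprints of each transcript stayed unchanged. Because TE is taken relative to mRNA, choosing transcripts by a higher TE favours those with lower mRNA. The 37 lower calls were of the other kind, with a median RNA change of -0.14 and a median footprint change of -3.23. Of the 37, 36 were called lower in Ribo-seq, against 18.3% of all transcripts. By label in all 12 libraries, the 168 higher calls were all called lower in RNA-seq, at a median of -1.93.

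Gene names could be paired with 2634 of 20561 transcripts, and 1999 of these names come from a table the study chose for raised TE in these samples. Named transcripts had a median TE change of 0.78 in 10 libraries (2493 tested) and unnamed ones 0.30 (6508 tested). The counts in the gene groups below are thus not independent evidence of a direction.

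Cytoplasmic ribosomal proteins, the protein components of the ribosome, had more TE calls than any other list described here. Their 81 named transcripts took up 16.7%, 14.7% and 14.8% of Eμ-Myc/+ RNA-seq counts and 2.54%, 4.48% and 5.73% of Prps2null counts. Their share of footprints was 3.77%, 3.87% and 2.45% in the libraries labelled Eμ-Myc/+ and 3.07%, 3.56% and 2.74% in those labelled Prps2null. Even between the highest and lowest Ribo-seq libraries the share differed far less than between the genotypes in RNA-seq.

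In RNA-seq, 81 of 81 ribosomal protein transcripts were lower in Prps2null, against 19.7% of all transcripts, with a median log2 change of -2.23. Footprints in the 4 remaining Ribo-seq libraries were lower for 63, against 18.3% of all transcripts, and higher for 0, with a median of -0.39. TE was higher for 67 of 81 in 10 libraries (median 1.84), against 2.79% of all transcripts, and for 65 in all 12 by label (median 2.14), against 1.87%, and the Prps2 split gave a median of 1.78. This group stayed 1.17 to 1.72 above the median of all transcripts in the 10-library comparison under every scaling, test, filter, block and left-out lymphoma that was run. The number of calls did not hold in that way, with 20 by library totals, 1 with the replicate block, 31 with the lymphoma block, 0 without Eμ-Myc/+ replicate 1 or 2, 32 without replicate 3 and 44 without Prps2null replicate 2. The 65 calls in all 12 libraries became 7 by library totals, 7 with the replicate block, 0 with the lymphoma block, 0 without Eμ-Myc/+ replicate 1 or 2, 7 without replicate 3 and 0 without Prps2null replicate 2. Ribosomal protein genes have many processed pseudogenes, and how reads shared with them were counted is not given in the sources used here.

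Rps23, a protein of the small subunit at the decoding centre, had the largest TE change of the 81. Its RNA stood at 3175, 2833 and 2561 CPM in Eμ-Myc/+ and at 254.8, 391.6 and 441.5 CPM in Prps2null. Its footprints were 313.2, 334.7 and 169.5 CPM under the Eμ-Myc/+ label and 193.2, 290.2 and 186.8 CPM under the Prps2null label. RNA levels did not overlap between genotypes, and the footprints of the high and low Prps2 libraries did not overlap either but lay much closer.

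The TE of Rps23 rose by 2.55 ± 0.37 (SE, log2) in 10 libraries (edgeR adjusted p = 0.00156) and by 3.06 ± 0.44 in all 12 by label (adjusted p = 0.00914). The Prps2 split gave 2.53. Rpl24 and Rpl17, proteins of the large subunit, rose by 2.40 ± 0.50 (adjusted p = 0.0175) and 2.3 ± 0.40 (adjusted p = 0.00624) in 10 libraries. Rps6, the substrate of S6 kinase downstream of mTORC1, had RNA at 4134, 3727 and 4160 CPM against 982.1, 1397 and 1726 CPM. Its footprints ranged from 459.4 to 694.5 CPM over the 6 Ribo-seq libraries, and its TE rose by 1.67 ± 0.37 (adjusted p = 0.0222).

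The 14 ribosomal protein transcripts that did not pass in 10 libraries included Rps27l, a paralogue of Rps27 that p53 induces, at 0.33 on the log2 TE scale (adjusted p = 0.56). Rps12 stood at 0.52 (adjusted p = 0.42), below the values of the 79 others. Both had lower footprints as well as lower RNA.

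Terminal oligopyrimidine (TOP) mRNAs begin with a C followed by a run of pyrimidines and are known to be translated under mTORC1 control. A 5′UTR was given for 1571 tested transcripts, and a TOP start was called where base 1 was C and 4 to 15 pyrimidines stood unbroken from it, which 54 (3.44%) had. Among ribosomal protein transcripts 6 of 47 (12.8%) had one, among TE-raised transcripts 13 of 129 (10.1%), and among the remaining 1436 transcripts that were neither 41 (2.86%). The 129 include ribosomal proteins, and without these 7 of 88 (7.95%) had one. Of 48 non-ribosomal transcripts with a TOP start, 7 (14.6%) had a raised TE. The share over all 1571 was 8.21%, but these include the 47 ribosomal protein transcripts, of which 41 were raised, so the 2 shares are not like for like. Of the 41 ribosomal protein transcripts without a TOP start in the given sequence, 35 had a raised TE, so the annotated first bases did not separate the raised members. Annotated starts need not be the starts used in these cells.

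The first 24 bases of 5 ribosomal protein mRNAs with a TOP start and a raised TE are shown because they carry the run in different lengths. They come from the 5′UTRs of the study's supplementary tables, 5′ to 3′, with the unbroken pyrimidine run from base 1 in capitals.
Rpl37a: CTCTTCggacttgggcttgggttc
Rpl36: CTTCCTgtcccggccgccatcgga
Rpl32: CTTCCTTCTTCCTCggcgctgcct
Rpl30: CCTTTCTCgctccccggccatctt
Rps21: CCCTCCTgcccaatagtgctgcgg

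The runs were 6, 6, 14, 8 and 7 bases long, and the TE changes in 10 libraries were 1.98, 1.97, 1.88, 1.86 and 1.61 on the log2 scale (edgeR adjusted p = 0.00741 to 0.0385). The Prps2 split gave 1.97, 1.92, 1.85, 1.79 and 1.58 for the same transcripts.

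Non-ribosomal genes are shown for contrast, 2 with a TOP start in capitals and 3 without one.
Rack1: CTTTTTCTCCacagggtcgtggtg
Pabpc1: CCCCTTCTCCCCggcggttagtgc
Igbp1: gctttagggctcgtctttatggag
Eef2: gttgacgtcagcggtctcttccgc
Eif3k: acacctctcttccggtcctctagt

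Rack1, a scaffold protein of the small subunit, rose by 2.02 (adjusted p = 0.0157), whereas Pabpc1, the cytoplasmic poly(A)-binding protein, stood at 0.68 (adjusted p = 0.26) with a longer run. Igbp1, a regulatory subunit of protein phosphatase 2A-type enzymes, Eef2 and Eif3k rose by 2.49, 2.12 and 2.07 (adjusted p = 0.00116, 0.00624 and 0.00156) without a TOP start in the given sequence. A match is a description of these letters and not evidence of a start site.

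Elongation factors and the classic non-ribosomal TOP genes were also lower in RNA-seq, 18 of 18 of them (median -1.98), against 19.7% of all transcripts. In Ribo-seq 8 were lower and 0 higher (median -0.26), against 18.3% and 17.7%. At an unadjusted p under 0.05, 2 were higher in Ribo-seq, against 2029 of 9048 transcripts, and DESeq2 called 0 higher. TE was higher for 11 of 18 in 10 libraries (median 1.56), against 2.79% of all transcripts, and for 11 in all 12 by label (median 1.75), against 1.87%, with a median of 1.50 in the Prps2 split. Eef2, the elongation factor that moves the ribosome along the mRNA, had RNA at 8634, 7391 and 7787 CPM against 1444, 1968 and 2147 CPM. Its footprints were 1812, 1924 and 1200 CPM under the Eμ-Myc/+ label and 1415, 1848 and 1586 CPM under the Prps2null label, and its TE rose by 2.12 ± 0.37 (adjusted p = 0.00624). With the replicate or the lymphoma block the adjusted p of Eef2 was 0.060 and 0.059, and the 11 calls of this list in 10 libraries became 0 and 5.

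The list of translation initiation factors shares members with the list just described, Eif3f among them, so the 2 lists are not separate evidence. In RNA-seq 18 of 18 were lower (median -1.20), against 19.7% of all transcripts. TE was higher for 9 of 18 in 10 libraries (median 1.11) and for 5 in all 12 by label (median 1.12). Of all transcripts, 2.79% and 1.87% had a higher TE in these tests. With the replicate or the lymphoma block, the 9 calls became 1 and 6. Subunits of eIF3, the complex that recruits the small subunit to mRNA, led the group. Eif3f had RNA at 489.2, 394.7 and 455.5 CPM against 75, 146.8 and 180.4 CPM, but footprints of 246.7, 273.3 and 295.6 CPM against 315.1, 257.9 and 321.9 CPM. Its TE rose by 2.36 ± 0.41 (adjusted p = 0.00627), and Eif3k and Eif3h rose by 2.07 ± 0.30 (adjusted p = 0.00156) and 1.99 ± 0.34 (adjusted p = 0.00601).

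Eif4a2, the second isoform of the initiation helicase eIF4A, had the lowest TE change among these 18. Its footprints stood at 424.2, 395.2 and 75.8 CPM under the Eμ-Myc/+ label and at 75.4, 276.4 and 60.2 CPM under the Prps2null label. They changed by -2.63 in the 4 remaining Ribo-seq libraries beside a fall of its RNA by 2.29, and its TE change was -0.34 in 10 libraries (adjusted p = 0.57) and -0.13 in the split.

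**Figure D4:**
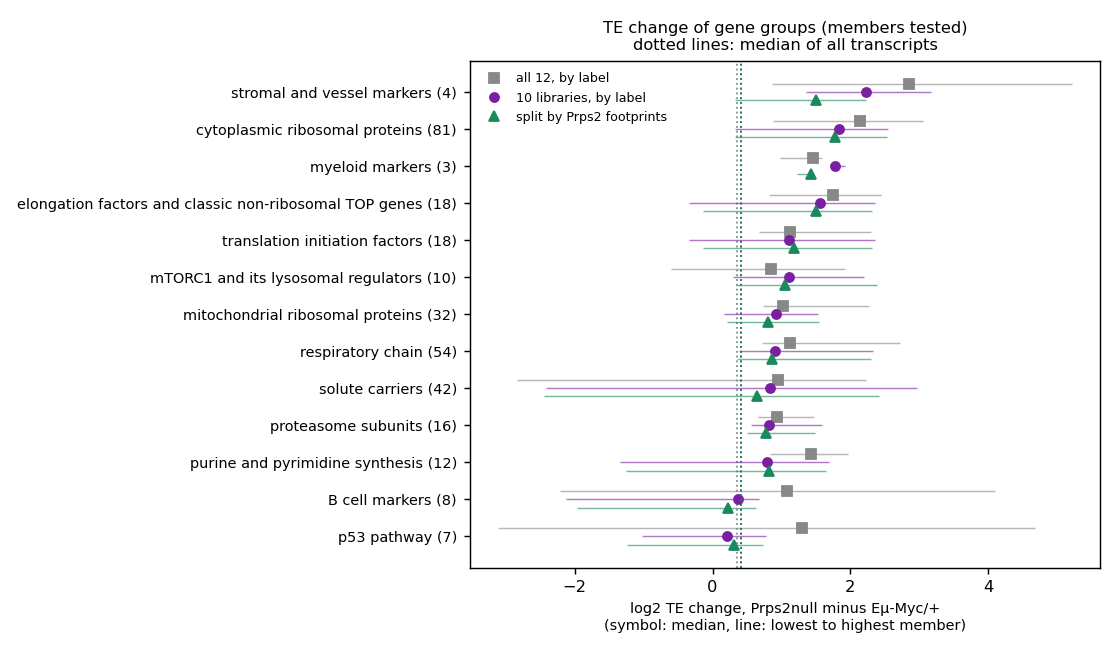
Median log2 TE change (symbols) and lowest to highest member (lines) of each functional or marker group with at least 3 tested members in the 3 groupings, with the median of all transcripts as dotted lines. Ribosomal proteins stand at 1.78 to 2.14 in every grouping, while the p53 pathway moves from 1.29 with all 12 libraries by label to 0.21 in 10 libraries and 0.32 in the split.

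Mitochondrial genes lay closer to the median of all transcripts. Of 32 mitochondrial ribosomal protein transcripts, 27 were lower in RNA-seq (median -1.03), against 19.7% of all transcripts. TE was higher for 1 in 10 libraries (median 0.92) and for 2 in all 12 by label (median 1.03). In the same tests 2.79% and 1.87% of all transcripts were called. The count of 1 is thus near the share over all transcripts. That 1 was Mrps27, at 1.34 ± 0.30 (adjusted p = 0.0222). Of 54 respiratory chain transcripts, 50 were lower in RNA-seq (median -1.21), against 19.7% of all transcripts. TE was higher for 6 in 10 libraries (median 0.90) and 6 in all 12 by label (median 1.12), against 2.79% and 1.87%. DESeq2 called 10 and 25 of them, against 337 of 9001 and 591 of 8987 transcripts. With the replicate or the lymphoma block in 10 libraries, 1 and 2 passed.

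Cox7a2l, which helps join respiratory complexes into supercomplexes, changed most in this group. Its RNA stood at 233.2, 224.1 and 238.9 CPM against 30.2, 43.0 and 50.6 CPM. Its footprints were 84.4, 64.0 and 52.7 CPM under the Eμ-Myc/+ label and 55.8, 77.2 and 49.4 CPM under the Prps2null label. Its TE rose by 2.33 ± 0.34 (adjusted p = 0.00156), with 2.3 in the split. Ndufa6 and Ndufa10, subunits of complex I, rose by 1.82 ± 0.44 (adjusted p = 0.0323) and 1.47 ± 0.36 (adjusted p = 0.0347).

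Proteasome subunits gave 13 lower of 16 in RNA-seq (median -0.94), against 19.7% of all transcripts, and 0 of 16 TE calls by edgeR in either test by label. In 10 libraries their TE median was 0.82, with 8 of 16 higher at an unadjusted p under 0.05 and 0 by DESeq2. Of all 9001 transcripts, 1710 and 337 were higher in the same way. In all 12 libraries, 13 were higher at an unadjusted p under 0.05 and DESeq2 called 4 higher, against 1839 and 591 of 8987 transcripts. Psmd2, a subunit of the regulatory particle, had footprints of 638.2, 681.3 and 504.5 CPM against 507.8, 707.0 and 478.8 CPM and a TE change of 0.73 ± 0.31 (adjusted p = 0.19). Of the 2 aminoacyl-tRNA synthetases with a name, Qars, which charges glutamine tRNA, rose by 1.95 ± 0.34 in TE (adjusted p = 0.00624).

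Nucleotide synthesis, the pathway in which PRPS2 acts, lost both mRNA and footprints in Prps2null. Besides Prps2, 11 of 11 members were lower in RNA-seq, and 9 of 11 had lower footprints in the 4 remaining Ribo-seq libraries, against 19.7% and 18.3% of all transcripts. Umps, which completes the synthesis of UMP, shows the pattern. Its footprints were 492.4, 601.7 and 207.0 CPM under the Eμ-Myc/+ label and 187.8, 518.0 and 232.2 CPM under the Prps2null label, a change of -1.41 in the 4 remaining Ribo-seq libraries (adjusted p = 2.5e-07) beside -1.91 in RNA. Its TE change was 0.50 in 10 libraries (adjusted p = 0.37), and 1.43 in all 12 by label (adjusted p = 0.18).

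TE in this pathway was higher for 1 of these 11 in 10 libraries and for 2 in all 12 by label, against 2.79% and 1.87% of all transcripts, and its median without Prps2 was 0.86 and 1.43. Impdh2, which commits purines to the guanine branch, rose by 1.68 ± 0.32 (adjusted p = 0.0127). Its RNA stood at 581.3, 564.9 and 492.3 CPM against 144.1, 208.2 and 203.9 CPM, and its footprints ranged from 505.0 to 725.9 CPM over the 6 libraries. Paics, a bifunctional enzyme of purine synthesis, was the other call in 12 libraries, at 1.30 (adjusted p = 0.043), and stood at 1.10 in 10 libraries (adjusted p = 0.051).

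Solute carriers, the transporters of amino acids, ions and metabolites, moved in both directions. Of 47 named members, 42 passed the filter on low counts for TE. RNA-seq called 7 of 47 higher and 27 lower, against 12.1% and 19.7% of all transcripts. Ribo-seq in the 4 remaining libraries called 11 of 42 higher and 10 lower, against 17.7% and 18.3%. TE in 10 libraries gave 2 higher and 1 lower, near the 2.79% and 0.411% of all transcripts, with a median of 0.83. At an unadjusted p under 0.05, 19 were higher and 1 lower, against 1710 and 177 of 9001 transcripts. DESeq2 called 6 higher and 1 lower, against 337 and 46. The higher edgeR calls were Slc25a17, a peroxisomal carrier, at 1.66 ± 0.38 (adjusted p = 0.0258) and Slco4a1, an organic anion transporter, at 1.41 ± 0.37 (adjusted p = 0.0455).

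Slc15a3, a peptide and histidine transporter of the lysosome, had low RNA counts, at 1.92, 7.82 and 3.53 CPM in Eμ-Myc/+ and 8.95, 14.6 and 11.6 CPM in Prps2null. Its RNA log2 change of 1.00 had an adjusted p of 0.0567. Its footprints were 7.28, 1.35 and 39.6 CPM under the Eμ-Myc/+ label and 40.3, 8.63 and 39.8 CPM under the Prps2null label. They rose by 3.29 on the log2 scale in the 4 remaining Ribo-seq libraries (adjusted p = 1.9e-05). Its TE change was 2.32 ± 0.78 in 10 libraries, which did not pass (adjusted p = 0.106), and -0.22 ± 1.06 in all 12 by label (adjusted p = 0.92), with 1.87 in the split. The 10-library value was 4.58 without Eμ-Myc/+ replicate 1 and 0.81 without replicate 2, and passed in neither case.

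The other transporters that were high in Prps2null repeated this change of sign or size. Slc12a2, the sodium, potassium and chloride cotransporter NKCC1, had footprints of 1.20, 2.36 and 166.7 CPM against 162.9, 3.97 and 109.6 CPM. Its pooled footprint level in the remaining Prps2null libraries was 92.4 times that in the remaining Eμ-Myc/+ libraries (95% interval from counts 31.4 to 449.7), which rests on 3 Eμ-Myc/+ counts after rounding, and its RNA rose by 3.50. Its TE change was 2.97 ± 0.81 in 10 libraries (adjusted p = 0.051) and -2.84 ± 1.60 in all 12 by label (adjusted p = 0.31). The 10-library value was 2.42 without Prps2null replicate 1 and 3.49 without replicate 3, and each of these leaves only 1 Prps2null Ribo-seq library.

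Slc7a7, a cationic amino acid exchanger, stood at 1.28 ± 0.76 in 10 libraries (adjusted p = 0.33) and -0.51 ± 1.02 in 12 (adjusted p = 0.80). Slc36a1, a lysosomal amino acid transporter, stood at 1.84 ± 0.93 (adjusted p = 0.26) and -0.45 ± 0.89 (adjusted p = 0.80). Slc8a1, the sodium and calcium exchanger, stood at 1.62 ± 0.75 (adjusted p = 0.22) and -1.08 ± 0.95 (adjusted p = 0.52). Slc1a4, a neutral amino acid transporter, stood at 0.64 ± 0.57 (adjusted p = 0.51) and -0.73 ± 0.94 (adjusted p = 0.67). None of these passed the TE test in either grouping by label, while footprints of each in the 4 remaining libraries were called higher, by 1.94 to 3.58. The remaining Eμ-Myc/+ Ribo-seq libraries held only 1.03 and 1.26 expected counts of Slc36a1 and 2.87 and 1.32 of Slc8a1, under the 3-count level.

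**Figure D5:**
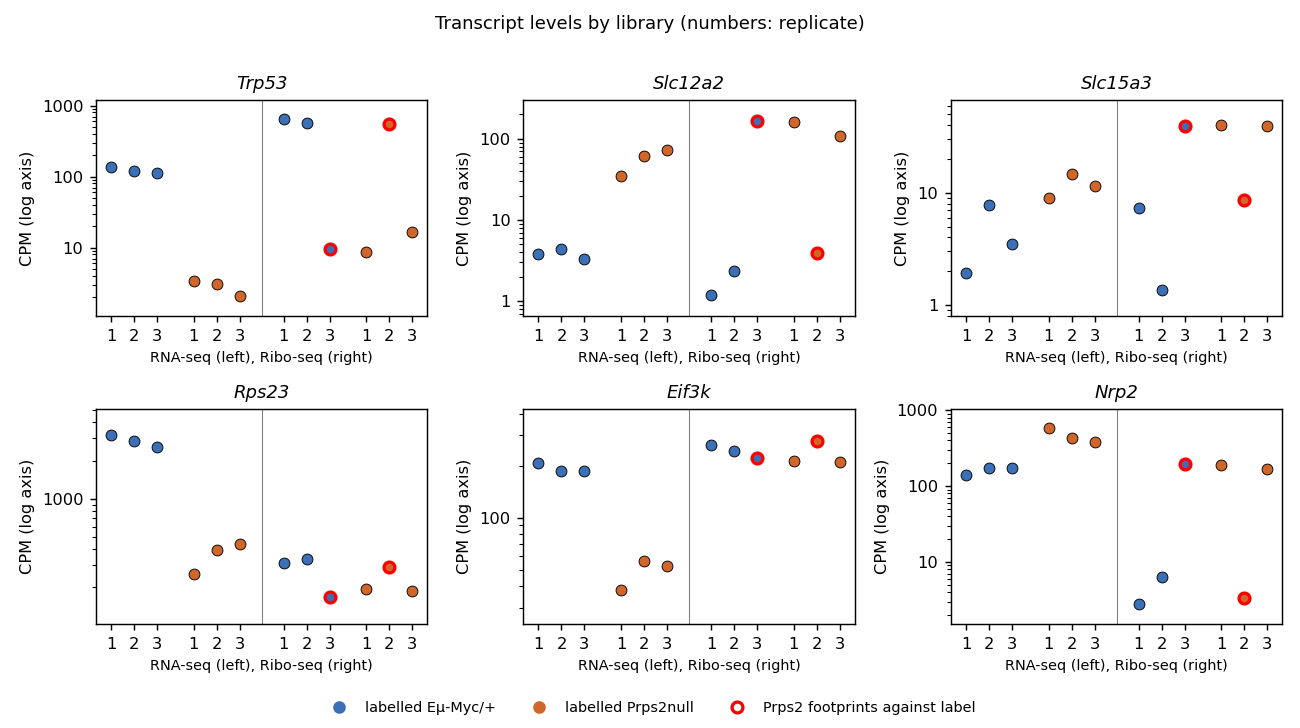
CPM (log axis) of 6 transcripts in each library, RNA-seq on the left and Ribo-seq on the right of each panel, coloured by label. Trp53, Slc12a2, Slc15a3 and Nrp2 footprints change side in the ringed libraries, while Rps23 and Eif3k differ strongly between genotypes in RNA-seq and little in Ribo-seq.

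A list of 10 named genes around mTORC1, the growth-control kinase complex, and its lysosomal regulators also held its downstream target Rps6. TE was higher for only 1 of the 10 in each test by label. That 1 was Rps6, the ribosomal protein described above, and no other member passed. Over all transcripts, 2.79% and 1.87% were called higher in 10 and 12 libraries. The group median was 1.11 in 10 libraries, where 7 were higher at an unadjusted p under 0.05 and DESeq2 called 3, against 1710 and 337 of 9001 transcripts. In all 12 libraries the counts for the group were 4 and 2, against 1839 and 591 of 8987 transcripts. Mtor, the kinase of mTORC1, had RNA at 181.5, 163.6 and 211.6 CPM against 239.9, 158.3 and 170.6 CPM, with overlap between genotypes. Its footprints were 236.1, 239.7 and 215.3 CPM against 237.4, 287.9 and 443.6 CPM, and the TE change was 0.84 ± 0.36 in 10 libraries (adjusted p = 0.20). Without Prps2null replicate 1 the change was 1.4 and without replicate 3 it was 0.27, and each of these leaves only 1 Prps2null Ribo-seq library. Ulk1, the autophagy kinase that mTORC1 inhibits, stood at 0.30 ± 0.37 (adjusted p = 0.63) and the lysosomal membrane protein Lamp2 at 1.14 ± 0.45 (adjusted p = 0.17). Deptor, an mTOR inhibitor, had footprints of 0, 3.38 and 16.6 CPM under the Eμ-Myc/+ label and 13.8, 1.43 and 15.9 CPM under the Prps2null label.

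Among the functional and marker groups plotted, the p53 pathway median moved most between the groupings by label. Its 7 tested members had a median TE change of 1.29 in all 12 libraries by label and of 0.21 in 10 libraries, against 0.36 and 0.42 for all transcripts, and edgeR and DESeq2 called 0 of 7 in 10 libraries. At an unadjusted p under 0.05, 2 were higher and 1 lower, against 1710 and 177 of 9001 transcripts. With library totals or scaling over both assays together the 10-library median was -0.13 and -0.17. Trp53 RNA fell by 5.82 and its footprints changed by -5.6 in the 4 remaining Ribo-seq libraries. Its TE change was 4.68 ± 1.97 in all 12 by label (adjusted p = 0.19), 0.21 ± 0.39 in 10 libraries (adjusted p = 0.76) and 0.09 in the split. The 10-library value was 0.73 without Prps2null replicate 1 and -0.51 without replicate 3.

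The other members of this pathway did not pass in edgeR either, while DESeq2 called 1 of 7 higher in all 12 libraries, against 591 of 8987 transcripts. There, 4 were higher and 1 lower at an unadjusted p under 0.05, against 1839 and 106 of all transcripts. Cdkn2a RNA rose by 4.03 and its footprints by 3.01. Its TE change was -3.11 ± 1.05 in 12 libraries (adjusted p = 0.13) and -1.02 ± 0.43 in 10 (adjusted p = 0.19). The 10-library value was -0.30 without Eμ-Myc/+ replicate 2 and -1.23 without Prps2null replicate 1, and each leaves 1 Ribo-seq library of that label. Trp53inp1, a p53 target, stood at 0.30 ± 0.28 in 10 libraries (adjusted p = 0.52). Bbc3, which encodes the pro-apoptotic protein PUMA, had footprints of 32.4, 50.6 and 9.41 CPM against 6.28, 43.2 and 4.67 CPM and a TE change of -0.20 (adjusted p = 0.81).

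Genes with strong RNA changes outside these groups showed the same contrast. Lef1 stood at 4.09 ± 1.61 in 12 libraries (adjusted p = 0.17) and 0.32 ± 0.42 in 10 (adjusted p = 0.66). Golim4, a Golgi membrane protein, stood at -3.68 ± 1.30 (adjusted p = 0.14) and 0.69 ± 0.86 (adjusted p = 0.64), and Foxf2 at -3.66 ± 1.47 (adjusted p = 0.17) and 0.93 ± 0.75 (adjusted p = 0.46). S100a6, a calcium-binding protein, stood at -3.39 ± 1.39 (adjusted p = 0.18) and -0.80 ± 0.91 (adjusted p = 0.60). The same genes gave 0.03, 0.50, 0.51 and -0.77 in the split. Leaving out 1 lymphoma moved the 10-library values widely, between -0.18 and 6.15 for Golim4 and between -1.90 and 0.13 for S100a6. The S100a6 value of -1.90 came without Prps2null replicate 1, which leaves only 1 Prps2null Ribo-seq library.

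Spint2, an inhibitor of serine proteases, was one of the genes of this kind that passed in 10 libraries. Its RNA stood at 57.3, 57.3 and 74.2 CPM against 1.93, 2.47 and 3.10 CPM, and its footprints at 187.1, 217.0 and 11.6 CPM against 17.4, 208.8 and 19.7 CPM. Its TE rose by 1.53 ± 0.37 (adjusted p = 0.0339), and was 1.26 in the split. It passed in 5 of 15 alternatives, and the adjusted p was 0.13 with the replicate block, 0.18 with the lymphoma block, 0.12 with library totals and 0.089 after thinning.

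By the rule for named genes, 7 transcripts with a lower TE in 10 libraries had a name, at least 10 CPM in each assay and no overlap of footprints, and 5 of them are described here. Prom1, which encodes the stem-cell marker CD133, had RNA at 37.0, 35.5 and 42.8 CPM against 7.74, 4.93 and 4.54 CPM. Its footprints were 78.1, 66.5 and 0.37 CPM under the Eμ-Myc/+ label and 0.99, 89.4 and 1.28 CPM under the Prps2null label. The mRNA was therefore present in Prps2null while footprints lay at about 1 CPM, under the 3-count level, in the 3 libraries with low Prps2. Its TE changed by -2.88 ± 0.59 (adjusted p = 0.0162), and by -3.48 in the split.

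The glycine transporter gene Slc6a9 and Fbxl12, which encodes an F-box protein of ubiquitin ligases, changed by -2.41 ± 0.61 (adjusted p = 0.0385) and -2.0 ± 0.39 (adjusted p = 0.0127). Fbxl12 footprints were 134.4, 160.8 and 5.74 CPM against 7.52, 121.5 and 5.95 CPM. Cacna1e, a calcium channel subunit, changed by -2.25 ± 0.61 (adjusted p = 0.0489). Its footprints were 85.2, 69.5 and 2.11 CPM against 1.25, 69.6 and 2.13 CPM. Those of Slc6a9 were 46.6, 50.4 and 2.17 CPM against 3.43, 48.2 and 1.38 CPM. The remaining Prps2null libraries held only 2.21 and 3.85 expected counts of Cacna1e and 6.07 and 2.49 of Slc6a9. The calls of Cacna1e and Slc6a9 passed in 6 and 7 of 15 alternatives. Cnksr3, a scaffold protein, had 3 counts in the remaining Prps2null libraries together. Its pooled footprint level in Eμ-Myc/+ was 52.1 times that in Prps2null (95% interval from counts 17.3 to 257.5, without the spread between lymphomas). In all 12 libraries by label, none of these 5 passed, and their TE changes were positive, from 1.01 to 2.36.

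Of the 8 largest rises, Nrp2, which encodes the semaphorin and VEGF co-receptor neuropilin-2, rested on the most counts. Its RNA stood at 139.2, 174.3 and 173.8 CPM in Eμ-Myc/+ and at 577.1, 433.1 and 386.5 CPM in Prps2null. Its footprints were 2.81, 6.40 and 193.3 CPM under the Eμ-Myc/+ label and 189.3, 3.39 and 167.7 CPM under the Prps2null label. Its mRNA thus had few footprints in the 3 libraries with high Prps2. Its TE rose by 4.0 ± 0.44 in 10 libraries (adjusted p = 0.000143) and passed under all of its 15 alternatives (adjusted p up to 0.0276). In all 12 libraries by label the change was -0.37 ± 1.38 (adjusted p = 0.90), and the split gave 4.21.

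The other 7 rises had almost no footprints in the 2 remaining Eμ-Myc/+ Ribo-seq libraries. Nek6, a mitotic kinase, had 0, 0 and 22.3 CPM under the Eμ-Myc/+ label and 25.9, 1.36 and 19.9 CPM under the Prps2null label, beside RNA of 11.3 to 18.1 CPM against 41.0 to 47.6 CPM. Its footprint level was at least 15.6-fold higher in the remaining Prps2null libraries than 3 counts over the remaining Eμ-Myc/+ libraries allow. The same bound was 18.6-fold for Arsb, the lysosomal enzyme arylsulfatase B, and 17.5-fold for D3Ertd254e. Arhgef12, a guanine nucleotide exchange factor, Dele1, a mitochondrial stress signal, Mpp7, a cell polarity protein, and Dnph1, a nucleotide hydrolase, had 1 or 2 counts in the remaining Eμ-Myc/+ libraries together. Their pooled ratios ran from 27.3 (95% interval from counts 7.36 to 228.9) for Dnph1 to 86.0 (15.2 to 3417) for Dele1. These intervals hold counting error only and no spread between lymphomas. TE calls for these 7 in 10 libraries (adjusted p = 0.00889 to 0.047) rest on that floor, and none passed in all 12 by label.

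B-lineage markers were checked against the isolated cell type. The summed level of 9 named markers was 837.6 to 1067 CPM in Eμ-Myc/+ RNA-seq and 339.0 to 563.4 CPM in Prps2null, and 1044 to 1992 CPM over the Ribo-seq libraries. Cd79a, a signalling chain of the B-cell receptor, was present in every library, with footprints of 729.5, 698.0 and 397.7 CPM against 489.2, 645.1 and 429.1 CPM, and its TE change was 0.67 ± 0.41 (adjusted p = 0.34).

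RNA-seq called 7 of the 9 named markers lower and 2 higher in Prps2null, against 19.7% and 12.1% of all transcripts. Cd79a was among the lower ones, with an RNA log2 change of -1.33 (edgeR adjusted p = 0.00115). Rag1 and Ms4a1, markers of precursor and mature B cells, went opposite ways in RNA-seq. Rag1, the recombinase of precursor cells, had footprints of 208.7, 167.0 and 19.3 CPM under the Eμ-Myc/+ label and 10.1, 94.6 and 9.35 CPM under the Prps2null label, and its RNA fell by 2.94. Ms4a1, which encodes the mature marker CD20, had footprints of 38.3, 23.2 and 207.0 CPM against 227.2, 22.0 and 221.3 CPM, and its RNA rose by 3.02. TE calls in this list were 0 of 8 in 10 libraries, and the median was 0.36. At an unadjusted p under 0.05, 2 were lower, and 1 was lower by DESeq2, against 177 and 46 of 9001 transcripts.

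Markers of other cells were present at low levels and moved with single libraries. The 3 named myeloid markers summed to 57.8 to 201.0 CPM in Ribo-seq and 15.5 to 41.1 CPM in RNA-seq. The 5 stromal and vessel markers summed to 74.7 to 242.0 CPM in 5 Ribo-seq libraries and to 604.6 CPM in the library labelled Prps2null replicate 2. Col3a1, a fibrillar collagen, had footprints of 31.7, 108.5 and 24.4 CPM against 17.2, 233.1 and 44.6 CPM, which overlapped between groups. Its RNA was 22.2, 48.6 and 40.7 CPM against 2.66, 2.65 and 1.45 CPM, and its TE rose by 3.18 ± 0.69 in 10 libraries (adjusted p = 0.021), against 2.10 (adjusted p = 0.13) without Prps2null replicate 3. The B-cell isolation would deplete these cells, and their part in the results was not tested. In bulk samples, fewer cells of a type and less RNA per cell cannot be told apart. No T-cell or red-cell marker had a paired name, so these were not analysed here.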

How the data were processed

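RNA-seq and Ribo-seq were measured in the 12 libraries described above. The authors deposited raw RNA-seq counts and stalling-corrected Ribo-seq expected counts per transcript, after trimming with cutadapt 2.3, collapsing by molecular identifiers (Ribo-seq), alignment with Bowtie2 2.3.5 to the isoform of longest coding sequence and selection of footprints of 23 to 32 nucleotides. The submitters' processing notes name mm10. Of the deposited Ribo-seq expected counts, 54.3% were not whole, and all were rounded. Such correction and isoform choice can shift a transcript's footprint level.

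Counts were filtered within each assay (edgeR's default), scaled by median of ratios and tested with edgeR 4.0.16 (limma 3.58.1, R 4.3.3), TE being the genotype by assay interaction. SE is the log2 change over the square root of F. The test was checked on simulated counts. Prps2 itself was given no Ribo-seq or TE test.

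The members, lists and groupings were chosen with earlier results of these data known. Named genes were those the study discusses, the 8 largest TE rises and falls called in 10 libraries (mean of at least 10 CPM in each assay, footprints not overlapping, name paired), and for each list up to 3 called members by size, or the 2 most abundant where none was called. Of the falls, 2 are not reported here. Umps, Paics, Rps27l, Rps12, Eif4a2, Bbc3, Rag1, Ms4a1, Deptor, Igbp1, Pabpc1 and the genes whose sequences are shown were named after their values were seen. Alternatives were TMM, library totals, joint scaling, DESeq2 1.42.0, logistic regression, 2 other filters, replicate and lymphoma blocks, left-out lymphomas and, chosen after seeing the data, thinning.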

Additional observations from a re-analysis of the deposited data

How the results depend on the processing

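Settings not named here left each count within 1.5 times its reported value, and the excess of ribosomal proteins over all transcripts stayed positive in all of them. For TE in 10 libraries (288 calls, 251 higher and 37 lower), library totals gave 114 (59 higher), joint scaling 146 higher, logistic regression, which holds no spread between lymphomas, 4616 (4261 higher, 355 lower), and at least 10 counts in every library 18 lower. The replicate numbers share only a number: with the replicate block, TE gave 15 calls (8 higher, 7 lower) in 10 libraries and 22 in 12, RNA-seq gave 4113, and the Ribo-seq block could not be fitted in 4 libraries. Same-numbered RNA-seq libraries had correlations of their deviations of -0.15, -0.02 and 0.01, and Ribo-seq ones -0.63, 0.74 and 0.71. The Ribo-seq values include the 2 libraries against their label. In the score per library, Ribo-seq replicates 2 lay together (-3.33 and -3.28), as did replicates 3 (-0.94 and -1.05). Replicates 1 lay apart (-3.23 and -1.01). With the lymphoma block, TE gave 98 calls (80 higher, 18 lower) in 10 libraries and 0 in 12 (edgeR), where the same test without the block gave 168. For the 168 calls in 12 libraries, library totals gave 20, joint scaling 104, DESeq2 597, logistic regression 5335 and at least 10 counts 298. Ribo-seq in 4 libraries gave 1852 calls by DESeq2, against 3261. The causes of these shifts were not tested. Leaving out 1 lymphoma in turn gave 5 to 929 TE calls in 10 libraries (2 to 837 higher, 3 to 92 lower), 0 to 193 in 12, 2700 to 5275 in RNA-seq and 1837 to 3664 in Ribo-seq, where the lowest 2 are without Eμ-Myc/+ replicate 2 (1837) and replicate 1 (2085). RNA-seq gave 2700 without Eμ-Myc/+ replicate 1. A left-out lymphoma can leave 1 Ribo-seq library on a side, which is then assumed to vary like the others. Over 800 values of 52 named genes under alternatives, 610 kept their side of the threshold, 171 lost it, 19 gained it and none of the called ones changed sign. Depth limits footprints under 1.07 to 3.08 CPM, the level of 3 counts in 1 library.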
